A study of Mus musculus with 10 samples.

Results

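The genes of antigen presentation by the major histocompatibility complex (MHC) were examined in pancreatic islets of mice heterozygous for Men1 and of their wildtype littermates. Members were all probe sets whose platform annotation symbol began with H2-, together with those of B2m, Tap1, Tap2, Tapbp, Psmb8, Psmb9, Psmb10, Psme1, Psme2, Cd74, Ciita, Nlrc5, Erap1 and Calhm6. This gave 84 of 45037 probe sets. Of these, 68 carried 1 gene symbol, for 36 genes, and 16 carried several symbols. A log2 signal above 4 on at least 5 of the 10 arrays was found for 46 of the 84, of which 37 carried 1 symbol and represented 21 genes. The other 38 probe sets, and with them 15 genes, lay below that limit and were not tested.

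The study profiled islets from 5 heterozygous and 5 wildtype female mice at 5 weeks of age, all of a strain recorded as C57 on a 129 background. Men1 encodes menin, a tumour suppressor. The labels do not state how the altered allele was made. About 100 islets were pooled per mouse to give 1 RNA sample and 1 short-oligonucleotide array, so replicates are separate mice. Signals are on the log2 scale, all differences are heterozygous minus wildtype, and levels are means ± SD (n = 5 per genotype).

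Class I molecules are carried by nearly all nucleated cells and show peptides from the cell interior to CD8+ T cells. Their heavy chains, such as H2-K1 and H2-D1, pair with the light chain B2m in the endoplasmic reticulum. There they receive peptides that were cut by the proteasome and carried in by the Tap1 and Tap2 transporter. Class II molecules are largely restricted to B cells, dendritic cells and macrophages. There the chains H2-Aa and H2-Ab1 travel with the invariant chain Cd74 and show peptides from endosomes to CD4+ T cells. In islets, resident macrophages are a known source of class II, while endocrine cells carry class I and raise it under interferon.

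The promoters of both classes are shown because the genes of each class are known to share control elements. RefSeq tables of assembly GRCm38.p6 held all 36 named genes, 28 of them on chromosome 17 and 26 of these between 33919478 and 37274485, and the promoter table held 25 of the 36. Promoters of 300 bases, from 250 before to 50 after the start site, were searched on both strands for 6 motifs taken from textbook knowledge. The stretches below cover the matches in the classical class I genes H2-K1 (chr17:34000317-34000472, minus strand) and H2-D1 (chr17:35262909-35263063, plus strand). They also cover the class II chain genes H2-Aa (chr17:34287852-34287912, minus strand) and H2-Eb1 (chr17:34305761-34305827, plus strand). Each is written 5′ to 3′ in the direction of transcription, with the motif matches in capitals.
H2-K1: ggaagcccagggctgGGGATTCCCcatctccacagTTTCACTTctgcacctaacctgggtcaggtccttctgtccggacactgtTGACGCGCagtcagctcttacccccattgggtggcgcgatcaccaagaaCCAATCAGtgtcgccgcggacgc
H2-D1: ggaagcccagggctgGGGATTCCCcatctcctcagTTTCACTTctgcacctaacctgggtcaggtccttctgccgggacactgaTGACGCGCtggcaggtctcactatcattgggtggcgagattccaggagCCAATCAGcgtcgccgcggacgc
H2-Aa: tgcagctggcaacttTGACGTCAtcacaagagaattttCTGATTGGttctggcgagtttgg
H2-Eb1: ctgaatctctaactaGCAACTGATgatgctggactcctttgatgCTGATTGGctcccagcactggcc

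The NF-kappaB motif GGGATTCCC was present in 0.353% of 32851 promoters, and among the members with a promoter only H2-K1 and H2-D1 held it. The IRF motif AAGTGAAA, which reads TTTCACTT on the strand shown, was present in 1.6% of all promoters and in 7 of the 25 member genes. Among those 7 were H2-K1, H2-D1, Erap1 and H2-M3. The site alpha motif TGACGCGC, found in 0.825% of promoters, was held by H2-K1 and H2-D1. The class II X box motif GCAACNGAT was in 0.414% of promoters and was held by H2-Eb1 and H2-Eb2. A cyclic AMP response element, TGACGTCA, occurred in 1.79% of promoters and among members in H2-Aa. The Y box motif CTGATTGG, read as CCAATCAG in the class I stretches, was in 4.1% of promoters and in 11 member genes of both classes. In the promoter windows of H2-K1 and H2-D1 the order of the 4 matches was the same, but their distance from the start site was not. The Y box match began 53 bases before the start site in H2-D1 and after it in H2-K1. The whole H2-K1 stretch lies inside the RefSeq span of that minus-strand gene, which ends at 34000619. The H2-D1 stretch lies before its gene, which starts at 35263094. The difference in distance therefore depends on which start site is taken for H2-K1. These matches describe letters in a window and are not measured binding sites.

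The arrays were alike in general quality. Array medians lay between 3.28 and 3.40, between 18458 and 18890 probe sets per array exceeded a log2 signal of 4, and arrays correlated at r = 0.962 to 0.988. Endocrine signals were strong, with Ins2 (insulin) at 16.20 to 16.26 in heterozygous and 16.19 to 16.36 in wildtype mice. Exocrine enzyme genes were of similar strength, with an acinar list mean of 15.70 to 16.15 in heterozygous and 15.91 to 16.32 in wildtype mice. The values are therefore not of endocrine cells alone. Men1 itself stood at 6.42 ± 0.30 in heterozygous islets and 6.89 ± 0.39 in wildtype islets, a difference of -0.47 (SE 0.20, limma p = 0.0396, adjusted p = 0.9999, exact permutation p = 0.0635). The control probe sets' 3′ minus 5′ signal, a measure of RNA shortening, was 3.56 and 3.59 in heterozygous mice 3 and 4, and between 3.21 and 3.37 in the other 8 mice.

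No member differed between genotypes past the threshold. None of the 46 probe sets passed an adjusted p of 0.05 in limma, where 0% of all 18567 tested probe sets passed. At an unadjusted p under 0.05 the count was 0 of 46 in limma, against 4.09% of all tested (2.57% higher and 1.52% lower), and also 0 of 46 in a plain test per probe set. No member had groups without overlap, against 0.7% of all tested (0.528% higher and 0.172% lower). Heterozygous islets were higher in 20 and lower in 26 of the 46 probe sets, whereas 56.4% of all tested probe sets were higher and 43.6% lower. With 1 probe set per gene, the brightest, 7 genes were higher and 14 lower, and the median difference was -0.05, against 0.02 over all tested probe sets. The unadjusted 95% interval of a gene reached a median of 0.47 to either side of the difference on the log2 scale, or 1.38-fold. Smaller shifts could not be resolved with 5 mice per genotype, and larger ones are not excluded for genes with wider intervals. That of Cd74 ran from -0.34 to 1.02.

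**Figure D1:**
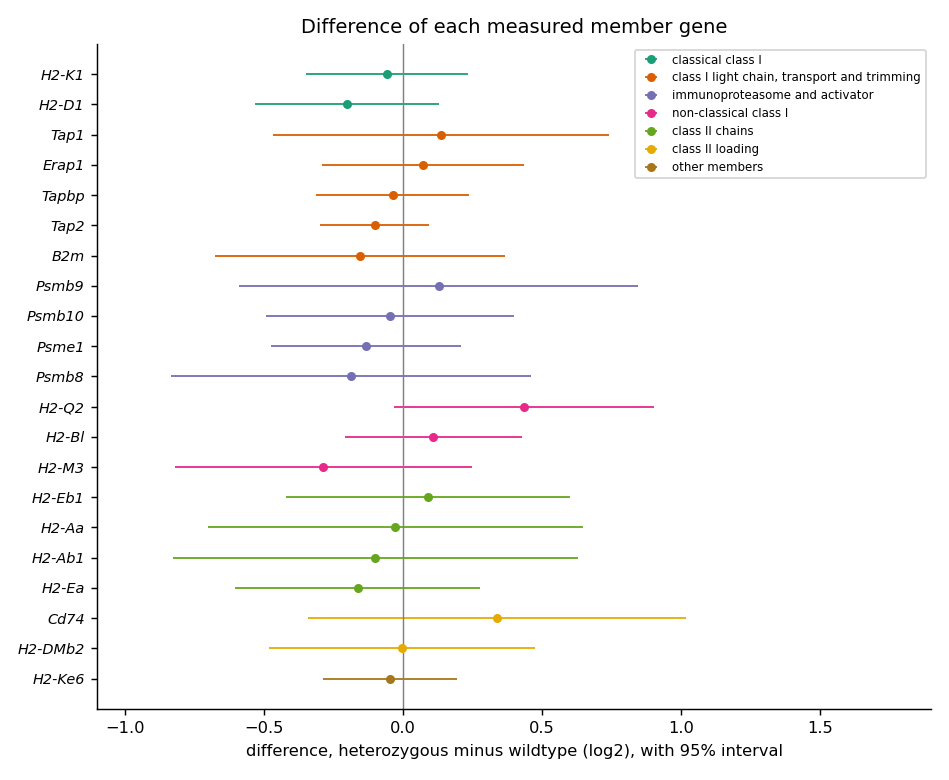
Difference of each of the 21 tested genes, heterozygous minus wildtype (log2, x axis), grouped by role, with the 95% interval from limma as a line. All 21 intervals include 0, and H2-Q2 lies highest at 0.43.

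Of the classical class I heavy chains, both lay slightly lower in heterozygous islets. H2-K1 read 11.68, 12.13, 11.44, 11.60 and 11.79 in heterozygous mice 1 to 5, against 11.81, 11.76, 12.02, 11.73 and 11.62 in wildtype mice 1 to 5. The groups overlapped over nearly their whole range, and the difference was -0.06 (SE 0.13, exact permutation p = 0.667). H2-D1 read 11.74, 12.00, 11.18, 11.50 and 11.91 in heterozygous mice, against 11.90, 11.88, 11.97, 11.90 and 11.68 in wildtype mice. Heterozygous mice 3 and 4 were the lowest of all 10 for this gene, and the difference was -0.20 (SE 0.15, limma p = 0.207, exact permutation p = 0.270). The array carries 4 tested probe sets for H2-K1 with differences from -0.20 to 0.29, of which 2 were higher and 2 lower. It carries 6 for H2-D1 with differences from -0.25 to 0.25, of which 1 was higher and 5 lower. The probe sets of each gene thus disagree in sign. Of the 46 tested member probe sets, 19 are of types (x_at, s_at) that can match related transcripts, a common case among the near-identical heavy chains. Class I heavy chain values are therefore uncertain as to which gene they measure.

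The light chain B2m, which stabilises every class I molecule, read 11.63, 12.32, 10.81, 11.96 and 11.93 in heterozygous mice, against 11.99, 11.89, 12.07, 11.76 and 11.72 in wildtype mice. Heterozygous mouse 2 was the highest and heterozygous mouse 3 the lowest of all 10, with 1.51 log2 units between them and 0.35 between the highest and lowest wildtype mouse. The difference between genotypes was -0.15 (SE 0.24, exact permutation p = 0.675), and a second B2m probe set gave -0.29 (exact permutation p = 0.270). Tap1, a subunit of the peptide transporter, read 4.07, 5.22, 3.81, 5.13 and 4.84 in heterozygous mice, against 4.53, 4.63, 4.81, 4.19 and 4.24 in wildtype mice. Here heterozygous mice 2, 4 and 5 lay above and mice 1 and 3 below all 5 wildtype mice, and the means differed by 0.14 (SE 0.27, exact permutation p = 0.651). Its partner Tap2 differed by -0.10, Tapbp (tapasin, which bridges transporter and class I) by -0.04, and Erap1 (a peptide-trimming aminopeptidase) by 0.07, with 95% intervals that all include 0. Tap2 had the lowest exact permutation p of all members, 0.0397, with groups that overlapped and a limma adjusted p of 0.9999.

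The immunoproteasome subunits replace catalytic subunits of the standard proteasome under interferon. Psmb8 read 4.43, 5.62, 3.83, 4.65 and 5.31 in heterozygous mice, against 5.06, 4.77, 5.25, 4.96 and 4.73 in wildtype mice, a difference of -0.19 (SE 0.29, exact permutation p = 0.603). Psmb9 read 5.99, 6.48, 5.75, 5.54 and 7.50 in heterozygous mice, against 5.95, 6.38, 6.46, 5.92 and 5.91 in wildtype mice, a difference of 0.13 (SE 0.33, exact permutation p = 0.802). Heterozygous mouse 2 was highest for Psmb8, and mouse 5 was highest for Psmb9. Psmb10 differed by -0.05. The proteasome activator subunit Psme1 read 8.40, 8.76, 7.94, 8.54 and 8.80 in heterozygous mice, against 8.60, 8.72, 8.69, 8.64 and 8.47 in wildtype mice, a difference of -0.13 (SE 0.15, exact permutation p = 0.516). Its partner Psme2 was measured only by a probe set that also matches Psme2b, with a difference of 0.09. The constitutive catalytic subunits Psmb5, Psmb6 and Psmb7, which the immunoproteasome subunits replace, differed by -0.09, -0.01 and 0.00.

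**Figure D2:**
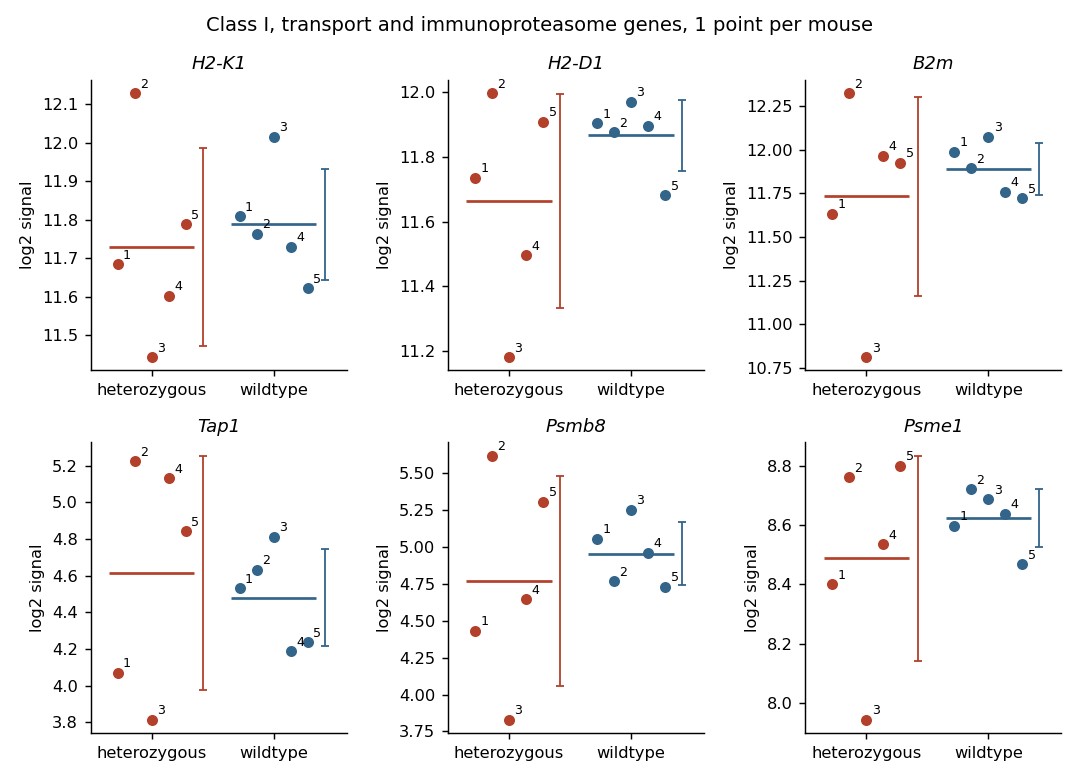
Log2 signal (y axis, not starting at 0) of 6 class I, transport and proteasome genes, 1 numbered point per mouse, heterozygous left and wildtype right, with group means as horizontal lines and ± SD as bars. Heterozygous mouse 3 is the lowest of the 10 in all 6 panels and heterozygous mouse 2 the highest in 5 of them, the exception being Psme1.

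Among the non-classical class I genes, 3 of 11 measured genes were bright enough to test. H2-Q2 read 11.13, 10.83, 10.53, 10.98 and 11.64 in heterozygous mice, against 10.65, 10.23, 10.78, 10.29 and 10.99 in wildtype mice. The groups overlapped, and its difference of 0.43 (SE 0.21) had the lowest limma p of all members, 0.0656 (adjusted p = 0.9999, exact permutation p = 0.103). H2-M3, which presents formylated peptides, differed by -0.29 (SE 0.24, exact permutation p = 0.310), and H2-Bl, a transcribed pseudogene in RefSeq, by 0.11. Several Qa and T region genes share probe sets that cannot be assigned to 1 gene. The probe set annotated jointly to H2-Q9 and H2-Q7 read 5.74, 7.71, 4.41, 6.67 and 7.80 in heterozygous mice, against 5.92, 6.06, 6.58, 6.60 and 7.53 in wildtype mice. It spread over 3.39 log2 units among heterozygous mice, the widest range of the tested members, and its means differed by -0.07. The probe set annotated to H2-Q6 and H2-Q8 read 5.95, 7.74, 5.14, 6.69 and 6.91 in heterozygous mice, against 6.83, 6.99, 6.83, 6.70 and 7.19 in wildtype mice. It gave the most negative difference of the members, -0.42 (SE 0.39, exact permutation p = 0.389), with heterozygous mice 1 and 3 below all wildtype mice. H2-Ke6, which lies in the region but encodes no MHC protein, differed by -0.05. The other 8 non-classical genes did not exceed a log2 signal of 4 on 5 arrays and were not tested. Of these, H2-T18 exceeded 4 on 4 arrays, and H2-M9 and H2-Q5 on 1 array each.

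The class II chains spread widely among heterozygous mice while their genotype means stayed close. H2-Aa, an alpha chain, read 10.25, 11.92, 10.42, 11.11 and 11.66 in heterozygous mice, against 10.91, 10.82, 11.38, 11.13 and 11.29 in wildtype mice. Heterozygous mice 2 and 5 lay above and mice 1 and 3 below every wildtype mouse, and the means differed by -0.03 (SE 0.31, exact permutation p = 0.921). H2-Ab1, its beta chain partner, read 8.12, 9.72, 8.10, 8.53 and 9.52 in heterozygous mice, against 8.87, 8.43, 9.36, 8.94 and 8.88 in wildtype mice. The same 4 heterozygous mice again lay outside the wildtype range on either side, and the means differed by -0.10 (SE 0.33, exact permutation p = 0.810). H2-Eb1, the beta chain of the other class II molecule, read 8.45, 9.60, 8.40, 8.74 and 9.41 in heterozygous mice, against 8.69, 8.69, 9.09, 8.83 and 8.86 in wildtype mice, a difference of 0.09 (SE 0.23, exact permutation p = 0.730). Its order of mice was alike. H2-Ea, listed in RefSeq as a transcribed pseudogene, lay near the detection limit with a difference of -0.16. The 4 tested H2-Aa probe sets gave differences from -0.10 to 0.29 and the 3 of H2-Ab1 from -0.10 to 0.25.

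Cd74, the invariant chain that guides class II to endosomes, read 8.22, 9.67, 8.08, 8.57 and 9.34 in heterozygous mice, against 8.41, 8.65, 8.81, 8.45 and 7.89 in wildtype mice. Heterozygous mice 2 and 5 again lay above every wildtype mouse, but wildtype mouse 5 was the lowest of all 10. The means differed by 0.34 (SE 0.31, limma p = 0.300, exact permutation p = 0.381). H2-DMb2, a chain of the peptide-loading helper H2-DM, read 4.50, 5.33, 4.67, 4.67 and 4.88 in heterozygous mice, against 5.54, 4.66, 4.46, 4.58 and 4.81 in wildtype mice, a difference of -0.01. A second H2-DMb2 probe set differed by 0.39 (exact permutation p = 0.230), and a probe set annotated jointly to H2-DMb2 and H2-DMb1 by 0.23 (exact permutation p = 0.254). In the joint probe set heterozygous mice 2 and 5 read 5.66 and 5.14, against at most 4.90 in wildtype mice. H2-Ob, a chain of the loading inhibitor H2-O that is known from B cells, was below the detection limit in most mice. It read 2.63, 5.64, 2.70, 2.66 and 4.29 in heterozygous mice, against 2.71, 2.66, 2.60, 2.60 and 3.09 in wildtype mice. Heterozygous mice 2 and 5 stood apart, and the other H2-O chain, H2-Oa, read 2.96 and 3.07 in those 2 mice and at most 2.22 in the other 8. H2-DMa and H2-Eb2 lay below the limit on all arrays, with highest values of 3.65 and 2.70. So did the class II transactivator Ciita (highest 3.26), the class I transactivator Nlrc5 (2.43) and Calhm6 (2.79), so the regulators of neither class could be compared.

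**Figure D3:**
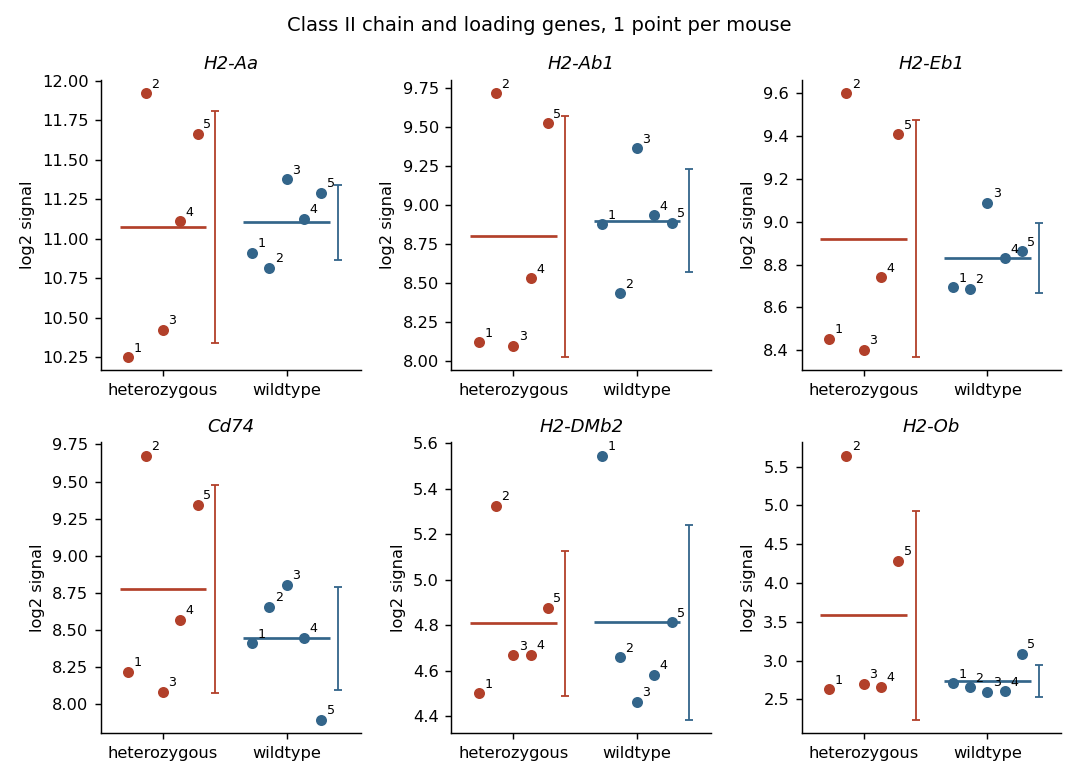
Log2 signal (y axis, not starting at 0) of 6 class II chain and loading genes, 1 numbered point per mouse, heterozygous left and wildtype right, with group means as horizontal lines and ± SD as bars. Heterozygous mice 2 and 5 are above every wildtype mouse in all panels but H2-DMb2, while H2-Ob lies below the detection limit in the other 8 mice.

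Class I and class II were set side by side through a few genes of each, and neither set held a gene that differed between genotypes past the threshold. Over H2-Aa, H2-Ab1, H2-Eb1 and Cd74, chosen with their values known, the mean signal was 9.39 ± 0.69 in heterozygous and 9.32 ± 0.20 in wildtype islets. The range over mice was 1.48 log2 units in heterozygous and 0.51 in wildtype islets. Over H2-K1, H2-D1 and B2m the mean was 11.71 ± 0.37 in heterozygous and 11.85 ± 0.13 in wildtype islets, with ranges of 1.005 in heterozygous and 0.344 in wildtype islets. The order of the 2 classes depends on the genes taken, since the joint H2-Q9 and H2-Q7 and H2-Q6 and H2-Q8 probe sets ranged over 3.39 and 2.60 log2 units among heterozygous mice, against at most 2.17 for any tested class II probe set. Of the 21 genes, 18 had a wider range among heterozygous than among wildtype mice, where 51.9% of all tested probe sets did. The members vary together across mice, so the 18 are not separate observations, and the spread itself was not tested. The 7 class I and transport genes had a median difference of -0.06 (2 higher, 5 lower), the 4 immunoproteasome genes -0.09 (1 higher, 3 lower) and the 6 class II genes -0.02 (2 higher, 4 lower).

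The extremes fell on few mice. Heterozygous mouse 3 was the lowest of the 10 in 13 of the 21 genes and in 9 of the 11 class I and immunoproteasome genes, while it was lowest in 17.4% of all tested probe sets. Heterozygous mouse 2 was the highest in 10 of the 21 genes, against 9.9% of all tested probe sets, and mouse 5 in 6 of them, against 23.8%. The 3′ minus 5′ signal was highest in heterozygous mice 3 and 4 (3.56 and 3.59). A fit with it as a covariate leans on those mice and does not separate RNA shortening from genotype. With 3′ minus 5′ signal as a covariate, H2-K1 differed by 0.04, H2-D1 by -0.03, B2m by -0.01 and Psmb8 by 0.05. In the same fit Psmb9 differed by 0.45, Cd74 by 0.56, H2-Eb1 by 0.23 and H2-Q2 by 0.54. Of the 46 probe sets, 2 had an unadjusted limma p under 0.05 there, against 4.66% of all tested, and none passed the adjusted threshold.

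In bulk islet RNA, more cells of a type and more RNA per cell cannot be told apart, and class II was therefore set beside markers of the cells that carry it. Heterozygous mice 2 and 5 had B cell list means of 4.31 and 4.15, against 3.11 to 3.20 in the other heterozygous mice and 3.08 to 3.33 in wildtype mice. Of the 13 measured B cell markers, 9 were below the detection limit by the rule used. The B cell surface receptor Cd22 read 7.55 and 6.57 in heterozygous mice 2 and 5 and 4.80 to 5.26 in the other 3 heterozygous mice, against 4.81 to 5.03 in wildtype mice. Ms4a1 (CD20) read 6.95 and 6.62 in the same 2 mice and 3.80 to 4.30 in the other heterozygous mice, against 3.60 to 5.31 in wildtype mice. Cd79b and Pou2af1, a B cell coactivator, also exceeded 4 in those 2 mice alone, whereas Pax5, Blk and Spib stayed below 2.31 in all 10. Cd79a did not set them apart, with 5.04 and 4.76 there and 4.68 in heterozygous mouse 1. Wildtype mouse 5 had the highest wildtype Ms4a1, 5.31, and the lowest Cd74 of all mice.

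At the low end of class II, heterozygous mice 1 and 3 had the lowest macrophage list means, 4.70 and 4.69, against 5.06 to 5.21 in the other heterozygous mice and 5.04 to 5.35 in wildtype mice. The lysozyme gene Lyz2 read 5.80 and 6.21 in these mice and 7.78 to 8.53 in the other heterozygous mice, against 7.54 to 8.29 in wildtype mice. The macrophage receptors Cd14 and Mrc1 were lower in heterozygous islets by differences of -0.64 (exact permutation p = 0.0238) and -0.93 (exact permutation p = 0.0397), and neither passed the adjusted threshold in limma. Both were also low in heterozygous mice 2 and 5. There Cd14 read 5.64 and 5.59, against 5.96 to 6.71 in wildtype mice, and Mrc1 4.81 and 4.59, against 4.99 to 6.23. Across the macrophage list 7 of 10 tested genes were lower and 3 higher. At an unadjusted limma p under 0.05, 3 were lower, against 1.52% of all tested probe sets, and none was higher. The gamma interferon target list was also lowest in heterozygous mice 1 and 3, at 6.27 and 6.12, against 6.99 to 7.10 in the other heterozygous mice and 6.59 to 6.998 in wildtype mice. So was the type I interferon target list, at 5.74 and 5.70, against 6.48 to 6.99 in the other heterozygous mice and 6.22 to 6.59 in wildtype mice. In the stromal list 8 of 8 tested genes were lower, 5 of them at an unadjusted limma p under 0.05, and in the endothelial list 7 of 8, with 2 at that p. Of all tested probe sets 43.6% were lower, and 1.52% were lower at that p. Stromal list means were low in heterozygous mice 1, 2, 3 and 5 (9.24 to 9.81) and 10.91 in heterozygous mouse 4, against 10.13 to 10.93 in wildtype mice. Endothelial list means were 6.78 to 7.40 in heterozygous and 7.25 to 7.70 in wildtype mice. Heterozygous mice 1 and 3 were the lowest of all 10 in the stromal list (9.35 and 9.24) and the endothelial list (7.04 and 6.78). Duct list means were 7.55 to 7.69 in heterozygous and 7.49 to 7.95 in wildtype mice. Most markers of other lymphoid and dendritic cells lay below the detection limit, with exceptions. The granzyme gene Gzma read 7.22 in heterozygous mouse 2 and 3.03 to 3.71 in the other heterozygous mice, against 3.15 to 3.55 in wildtype mice. Ccr7, a chemokine receptor of migrating dendritic cells and lymphocytes, read 4.13 in heterozygous mouse 2 and 2.73 to 3.50 in the other heterozygous mice, against 2.70 to 3.18 in wildtype mice. Zap70, Zbtb46 and Cst3 were above the limit in all 10 mice. The T cell list lay at 3.01 to 3.13 in heterozygous and 2.96 to 3.07 in wildtype mice, and the dendritic cell list at 3.62 to 3.94 in heterozygous and 3.60 to 3.69 in wildtype mice. The NK cell list was 3.28 in heterozygous mouse 2 and 2.43 to 2.56 in the other heterozygous mice, against 2.42 to 2.53 in wildtype mice. Lymph node stroma markers averaged 3.25 to 3.94 in heterozygous and 3.22 to 3.91 in wildtype mice. Of these, Cxcl13 read 5.22 in heterozygous mouse 5 and 2.46 to 2.56 in the other heterozygous mice, against 2.42 to 2.84 in wildtype mice. Glycam1 read 5.97 and 4.13 in wildtype mice 4 and 1, and 3.31 to 3.39 in heterozygous mice. Islet endocrine markers averaged 13.58 to 14.11 in heterozygous and 13.56 to 14.19 in wildtype mice. The part of these markers in the class II values was not tested beyond the fits that follow.

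**Figure D4:**
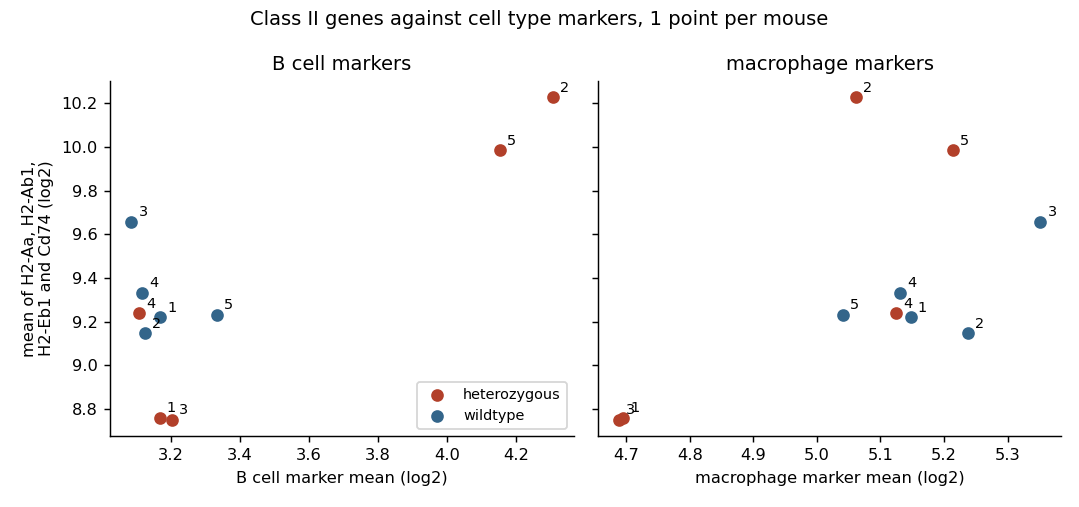
Mean log2 signal of H2-Aa, H2-Ab1, H2-Eb1 and Cd74 (y axis) against the mean of B cell markers (left, x axis) and macrophage markers (right, x axis), 1 numbered point per mouse, heterozygous in red and wildtype in blue. Heterozygous mice 2 and 5 lie apart at the right of the B cell panel, and heterozygous mice 1 and 3 at the lower left of the macrophage panel.

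The mice fell into 2 clusters on the B cell, macrophage and dendritic cell lists, so no correlation over all 10 was computed for them. The smaller clusters were heterozygous mice 2 and 5, heterozygous mice 1 and 3, and heterozygous mouse 2, in that order. Within the larger cluster (8, 8 and 9 mice), and over all 10 mice for the T cell list, 36 relations of 9 members were tested. Only 1 passed an adjusted p of 0.05, that of Cd74 with the B cell list, with r = -0.91 (n = 8, exact permutation p = 0.00032, adjusted p = 0.0115). Its Spearman rho was -0.90 (exact permutation p = 0.00456, adjusted p = 0.164). The list spanned only 0.25 log2 units in these 8 mice with most of its markers below detection. Without wildtype mice 3 and 5, r was -0.87 (n = 6, exact permutation p = 0.0278), and no relation passed the adjustment. With the macrophage list, H2-Aa gave r = -0.18 (n = 8, exact permutation p = 0.673, adjusted p = 0.951) and rho = -0.21 (exact permutation p = 0.619). T cell relations were computed from a list with 12 of 13 markers below detection, and the strongest, with H2-D1, was r = -0.68 (n = 10, permutation p = 0.0261, adjusted p = 0.471).

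Leaving out the mice that stood apart moved class II in opposite directions. Both exclusions remove heterozygous mice only, were chosen with these data known, and take away values at 1 end, so neither is a test of the genotype. Without heterozygous mice 2 and 5 the median class II difference was -0.25, H2-Ab1 differed by -0.65, H2-Aa by -0.51 and Cd74 by -0.15. Of the 46 probe sets, 12 then had an unadjusted limma p under 0.05, against 3.69% of all tested. Without heterozygous mice 1 and 3 the median class II difference was 0.39, Cd74 differed by 0.75, H2-Ab1 by 0.36 and H2-Aa by 0.46, and 4 of the 46 probe sets had an unadjusted limma p under 0.05, against 3.39% of all tested. No member passed the adjusted threshold in either case. The B cell mean was high in heterozygous mice 2 and 5 alone. A fit with it as a covariate therefore rests on the same 2 mice and is not a separate test of the genotype either. With the B cell mean as a covariate, H2-Ab1 differed by -0.61, H2-Aa by -0.48, H2-Eb1 by -0.28 and Cd74 by -0.09. In the same fit Psmb8 differed by -0.61, H2-D1 by -0.37 and Psmb9 by -0.30. Of the 46 probe sets, 8 had an unadjusted limma p under 0.05 there, against 3.04% of all tested, and none passed the adjusted threshold.

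Other genes of both pathways were counted from lists that contain no member. Class I folding helpers (Canx, Calr, Pdia3 and Tapbpl) were higher in 1 and lower in 3 of 4, with a median difference of -0.01, Calr at -0.14 and Tapbpl at 0.10. The endosomal enzymes that prepare class II peptides were higher in 3 and lower in 2 of 5, with Ifi30 (a thiol reductase) at 0.22 and Lgmn (a cysteine protease) at -0.20. The factors that bind class II promoters, the Rfx, Nfy and Creb1 genes, were lower in 7 of 7, with a median of -0.07 and Nfya at -0.21 (exact permutation p = 0.27). Interferon receptors and signalling genes were higher in 5 and lower in 4 of 9, and Ifngr1, a gamma interferon receptor chain, differed by -0.30 (SE 0.14, limma p = 0.0567, exact permutation p = 0.0873). Gamma interferon targets were higher in 3 and lower in 8 of 11, with a median of -0.17 and Iigp1 at -0.33. Type I targets were also higher in 3 and lower in 8 of 11, with a median of -0.18 and Ifit2 at -0.52 (exact permutation p = 0.0873). Among all tested probe sets 43.6% were lower, and the counts by direction were not tested. None of the genes in these lists passed an adjusted p of 0.05. At an unadjusted limma p under 0.05 only Ifit2 did, where 4.09% of all tested probe sets did.

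**Figure D5:**
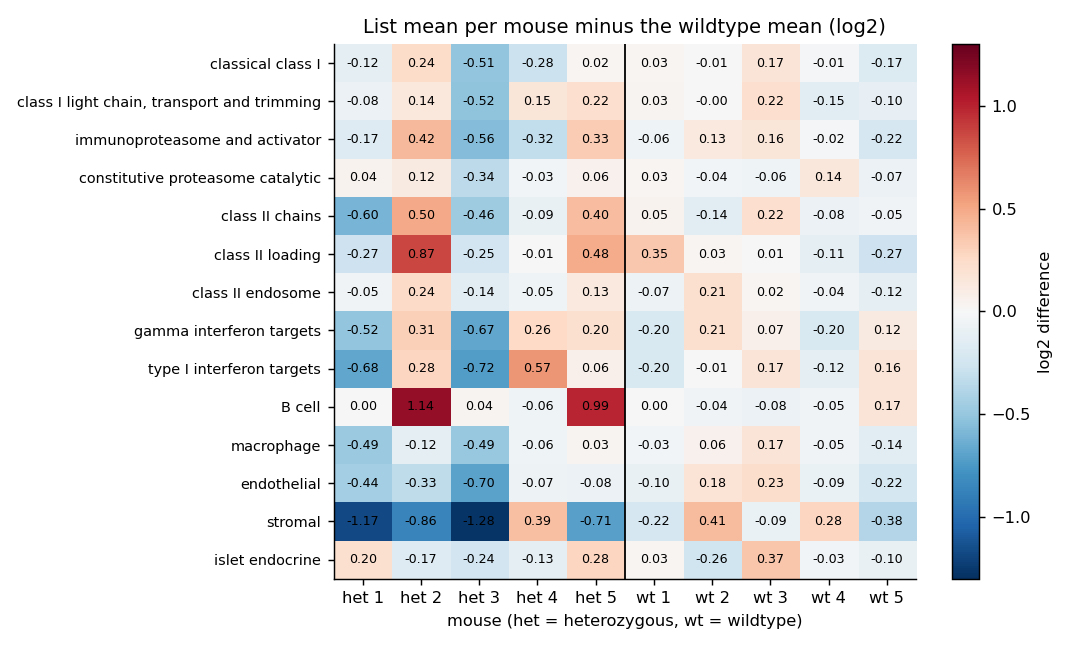
Mean log2 signal of each gene list in each mouse minus the mean of the 5 wildtype mice (colour and printed value), heterozygous mice left and wildtype mice right of the line. The class II chain list is high in heterozygous mice 2 and 5 together with the B cell list. It is low in heterozygous mice 1 and 3 together with the macrophage, interferon target, endothelial and stromal lists. The stromal list is also low in heterozygous mice 2 and 5.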

How the data were processed

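Signals were deposited as log2 values for every probe set on every array. The submitters' processing notes name GCRMA. This method adjusts background by probe sequence, normalizes between arrays and pulls dim probe sets to a common low value. RNA (100 ng) was amplified over 2 cycles, per the labels' protocols. Probe sets were named through the platform annotation, and those with several symbols were assigned to no gene.

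Differences were fitted with limma 3.58.1 in R 4.3.3 over all 18567 probe sets above log2 4 on at least 5 of 10 arrays, 64 control probe sets left out, with Benjamini-Hochberg adjustment over all of them. All p-values are two-sided. Exact permutation tests used the 252 assignments of 5 of 10 arrays (smallest p 0.00794). A gene was represented by its brightest probe set. Correlations used exact permutations, or 100000 with 10 mice. The fit was tested on simulated data.

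The members and lists were chosen with earlier results of these data known. By the rule for names, all class I, class II, processing and regulator members are named, with the 6 members of smallest p, and non-members only where a member's result turns on them or as the 2 smallest p of a pathway list. Gzma, Ccr7, Zap70, Zbtb46, Cst3, Cxcl13 and Glycam1 are named although the rule did not take them, with values known. So are the B cell markers other than Cd79a, Ms4a1 and Cd22. The lists were used for B, T and NK cell, macrophage, dendritic cell, lymph node stroma, endothelial, stromal, acinar, duct and islet endocrine markers. Same-numbered arrays deviated from their group means with correlations of 0.11, -0.04, -0.28, 0.03 and 0.11, so the numbers were not treated as pairs. Alternatives were filters, normalizations, variance priors, array weights, a replicate block, covariates, left-out arrays and a plain test.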

Additional observations from a re-analysis of the deposited data

Results flagged for a closer look

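In 50 groups of 5 mice tested for a single distant value, 4 were singled out, where chance gives about 1 in 20. Tap2 in heterozygous mice had 1 low value, 4.36 in mouse 3, while the other 4 lay between 4.49 and 4.50. Tap2 in wildtype mice had 1 high value, 4.81 in mouse 3, against 4.48 to 4.52 in the others. Erap1 in wildtype mice was low in mouse 4 at 7.02, and H2-Ke6 in heterozygous mice was high in mouse 5 at 8.28. A signal outside the tested probe sets came from H2-Ob, which reached 5.64 in heterozygous mouse 2 and 4.29 in heterozygous mouse 5, against at most 3.09 in wildtype mice.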

How the results depend on the processing

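No member passed an adjusted p of 0.05 in limma under any of the alternatives run. All of the sign changes given here are of genes that did not pass, and their cause was not tested. Without heterozygous replicates 1 and 3, a setting added after the data were seen, the class II median was 0.39 (all mice -0.02) and the sign turned for H2-K1 0.052, B2m 0.18, Tapbp 0.042, Psmb8 0.24, Psme1 0.077, H2-Aa 0.46, H2-Ab1 0.36, H2-DMb2 0.14, H2-Bl -0.040, H2-Ke6 0.051 and Psmb6 0.11. Without heterozygous replicates 2 and 5 it turned for Tap1 -0.14, Psmb9 -0.36, H2-Eb1 -0.30, Cd74 -0.15 and Ms4a1 -0.087. With the B cell mean as a covariate it turned for Tap1 -0.10, Psmb9 -0.30, H2-Eb1 -0.28, Cd74 -0.088 and Ms4a1 -0.12. With the 3′ minus 5′ signal as a covariate it turned for H2-K1 0.041, Tapbp 0.046, Psmb8 0.055, Psmb10 0.037, H2-Aa 0.051, H2-Ab1 0.094, H2-DMb2 0.018, H2-Ke6 0.0064 and Psmb6 0.10, and with the acinar mean for Erap1 -0.029, Psmb9 -0.050, Psmb10 0.040 and H2-DMb2 0.0003. Array weights turned Psmb10 0.031 and H2-Eb1 -0.016. Leaving out 1 mouse at a time gave differences that crossed 0 for these genes: H2-K1 -0.16 to 0.013, B2m -0.30 to 0.075, Tap1 -0.015 to 0.34, Tapbp -0.12 to 0.028, Erap1 -0.025 to 0.18, Psmb8 -0.40 to 0.047, Psmb9 -0.18 to 0.30, Psmb10 -0.19 to 0.089, Psme1 -0.21 to 0.0018, H2-Aa -0.24 to 0.18, H2-Ab1 -0.33 to 0.074, H2-Eb1 -0.081 to 0.22, H2-DMb2 -0.13 to 0.18, H2-Bl -0.009 to 0.17, Tapbpl -0.013 to 0.17, Psmb6 -0.073 to 0.084. The replicate number as a block, not supported as a pairing, gave 0 calls among all probe sets at the adjusted threshold, 786 at an unadjusted p under 0.05 (760 without it) and 1 among members, and changed no call. With the 2 mice farthest from the median left out, 0 relations passed instead of 1. Signal near the detection limit leaves H2-Ea, Tap1, Tap2, Psmb8 and H2-DMb2 less precise, and says nothing of the 38 probe sets below it.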
